A study of Mus musculus with 9 samples.

Results

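The conjugation enzymes of phase II metabolism were described in livers of mice with and without the receptor PAR2 on a high-fat diet. The genes were chosen by symbol alone: every gene of the deposited table named as a glutathione S-transferase (GST) of the alpha, kappa, mu, omega, pi, theta or zeta class, as a UDP-glucuronosyltransferase (UGT) of families 1 to 3, or as a cytosolic sulfotransferase (SULT) of families 1 to 6, leaving out pseudogene symbols. This gave 59 of 23337 genes, of which 21 were GST, 20 were UGT and 18 were SULT genes. A conjugation enzyme joins a polar group to a drug, a toxin, a hormone or a breakdown product, so that bile or urine can carry it away. GSTs use the tripeptide glutathione, UGTs use UDP-glucuronic acid and work on the inner face of the endoplasmic reticulum, and SULTs use the sulfate donor PAPS in the cytosol. Hepatocytes carry most of this capacity, and many of the genes lie in tandem clusters of near-identical copies.

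Poly(A) RNA was sequenced from the livers of 9 C57BL/6 mice, all fed a high-fat diet for 16 weeks from an age of 6 to 8 weeks. Of the mice, 3 were labelled PAR2dHep and lacked PAR2 in hepatocytes (dHep), 3 were labelled as whole-body PAR2 KO (KO), and 3 were floxed PAR2fl/fl controls (WT). The promoter that drove Cre in dHep mice is not given in the sources used here, and the labels give no sex. PAR2 is a receptor on the cell surface that serine proteases of coagulation and inflammation switch on by cleavage.

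The libraries held 18683660 to 30509242 reads assigned to genes, and Pearson r of log2 values between replicates was 0.949 to 0.974 in dHep, 0.974 to 0.989 in libraries labelled KO and 0.984 to 0.991 in WT, across genes, which are not independent replicates. F2rl1, which encodes PAR2, had 2, 8 and 0 reads in dHep, 71, 103 and 76 in libraries labelled KO, and 17, 27 and 28 in WT. It was lower in dHep than in WT (log2 fold change -2.73 ± 0.66 SE with an edgeR adjusted p = 0.0164, range over the alternatives 6.3e-05 to 0.062), a call that ended without WT replicate 2 (0.0595), WT replicate 3 (0.062) or dHep replicate 1 (0.0505). In the libraries labelled KO it was higher than in WT, not lower (2.22 ± 0.51, edgeR adjusted p = 0.00735), and every direction below for these libraries rests on the label. Counts are of the whole gene, so reads from a deleted part and a remaining part were not separated. The 10 hepatocyte marker genes fixed for this check were present in every library and summed to 114090 to 164186 CPM (counts per 1000000 reads, on TMM-scaled library sizes) in dHep, 117318 to 131497 in libraries labelled KO and 103581 to 109062 in WT. Marker sums of other cell types also differed between groups, but the macrophage sums of dHep and WT overlapped. The 9 Kupffer cell and macrophage markers summed to 158 to 285 CPM in dHep, 62.3 to 120.2 in libraries labelled KO and 256 to 337 in WT. Clec4f alone had 77.0, 130 and 78.7 CPM in dHep. By single marker, 6 of the 9 were lower in dHep than in WT at an edgeR adjusted p under 0.05. In the same order, 8 stellate cell markers summed to 309 to 461, 253 to 337 and 586 to 657 CPM, and 7 sinusoidal endothelial markers to 186 to 252, 132 to 193 and 279.8 to 311 CPM. Pancreatic enzyme markers (11 genes) summed to 1660.4 CPM in dHep replicate 2 and 412 in WT replicate 1, against 12.5 to 84.6 in the others, and 10 skeletal muscle markers to 621 CPM in dHep replicate 2, against 0.852 to 52.3. Intestinal epithelium markers (9 genes) summed to 406 CPM in KO replicate 1, against 157 to 317 in the others. Sis had 1620 reads and Lct 558 in KO replicate 1, and neither passed 1 read in any other library. Fabp2 and Lgals4, also on that list, were not highest there. The part of these RNAs in the results below was not tested, and in whole liver fewer cells of a type and less RNA per cell cannot be told apart.

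Of the 59 conjugation genes, 43 had enough reads for the test (19 GST, 17 UGT and 7 SULT), and 6 had no read in any library. A gene is said to have risen or fallen where its edgeR quasi-likelihood p, adjusted over all 13141 genes tested, was under 0.05. In dHep against WT 10 of 43 rose and 9 fell (44.2% called), where 12.4% and 11.9% of all genes did (24.3% called). In the libraries labelled KO against WT 10 rose and 14 fell (55.8%), where 20.9% and 22.1% of all genes did (43% called). Between the libraries labelled KO and dHep 5 rose and 10 fell (34.9%), where 4.23% and 5.39% of all genes did (9.62%). The libraries of the groups compared did not overlap in CPM for 24, 34 and 26 of the 43 genes, and for 43.4%, 66.3% and 26.5% of all genes tested. The median absolute log2 fold change of the 43 genes was 0.66, 0.75 and 0.69 in the 3 comparisons, against 0.32, 0.44 and 0.26 over all genes tested, while the median signed change stayed near 0 (0.13, 0.05 and -0.02, against 0.02, -0.01 and -0.02). Both comparisons with WT share the WT libraries: 5 genes rose in both, 8 fell in both, none went opposite ways with both calls, and 13 passed in neither. The same was not counted over all genes. Some counts hung on single libraries. The 10 that rose in dHep against WT were 5 without WT replicate 2 or WT replicate 3, and the 10 that rose in the libraries labelled KO against WT were 6 without WT replicate 2. In the libraries labelled KO against dHep the rises numbered 3 without WT replicate 2, WT replicate 3 or dHep replicate 2, 14 without dHep replicate 3, and 2 without KO replicate 2 or KO replicate 3. The falls there numbered 4 without KO replicate 2 and 5 without KO replicate 3.

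**Figure D1:**
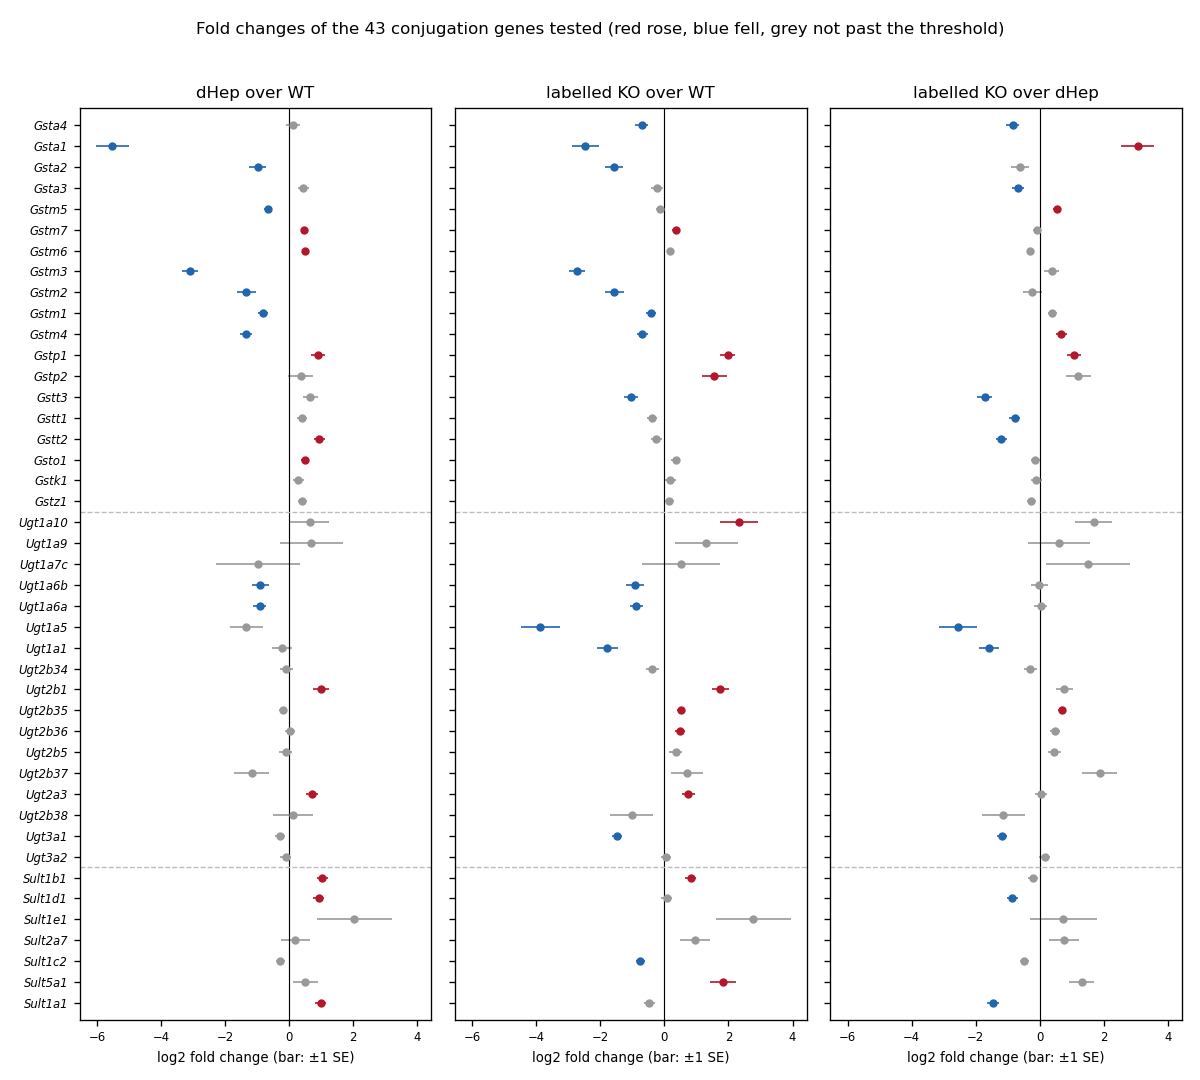
Log2 fold changes of the 43 conjugation genes tested, in dHep over WT (left), libraries labelled KO over WT (middle) and libraries labelled KO over dHep (right); bars are ±1 SE, red marks genes that rose, blue genes that fell and grey genes past no threshold. Gsta1 lies at -5.52 on the left and at 3.06 on the right, and dashed lines part GST, UGT and SULT genes.

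As class totals, GST genes summed to 6145 ± 1147 CPM (SD, n = 3) in dHep, 5596 ± 180.1 in libraries labelled KO and 5840 ± 364 in WT. UGT genes summed to 4623 ± 1055 CPM in dHep, 5568 ± 406 in libraries labelled KO and 4408 ± 348 in WT. SULT genes summed to 562, 782 and 841 CPM in dHep, 369.8, 327 and 400.5 in libraries labelled KO and 369, 398 and 383 in WT. Every dHep library lay above every other library in that sum. Per length, with CPM divided by the kilobases of exon that no other gene shares (RPKM), the leading GST genes over all 9 libraries were Gsta3 at 1261, Gstm1 at 1034, Gstp1 at 768 and Gstz1 at 516. Ugt2b36 at 540.1 and Ugt2b5 at 416 RPKM led the UGT genes, and Sult1a1 at 189.6 and Sult1d1 at 63.7 RPKM the SULT genes.

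Alpha-class GSTs take up lipid peroxidation products and steroids as well as drugs. Gsta1 showed the largest fall of all members tested in dHep: it had 10, 4 and 12 reads in dHep, 99, 47 and 29 in libraries labelled KO and 325, 361 and 602 in WT. The 3 groups did not overlap, with dHep lowest and WT highest. Gsta1 fell by 5.52 ± 0.52 (SE) on the log2 scale in dHep against WT, a 46.0-fold lower level (edgeR adjusted p = 0.00033), and by 2.47 ± 0.42 in the libraries labelled KO against WT (edgeR adjusted p = 0.00175). Libraries labelled KO were 8.32-fold above dHep (log2 fold change 3.06 ± 0.52, edgeR adjusted p = 0.00996). All 3 calls held under all alternatives run. Gsta1 is hard to count, because 89.7% of the 50-base windows of its transcript also occur in transcripts of other genes, 82.9% in those of Gm3776, and reads that fit several places were not counted. The row of Gm3776 itself had 2, 0 and 10 reads in dHep, 8, 14 and 15 in libraries labelled KO and 75, 100 and 166 in WT. Gsta1 and Gm3776 cannot be fully told apart in these counts, and dHep and KO libraries lay below WT in both rows.

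Gsta2 lies near Gsta1 and encodes a near-identical enzyme, and 64.2% of its windows are shared with other transcripts, 44.8% with that of Gsta1, so the 2 genes' counts are not fully separate. It had 11.4, 13.3 and 24.3 CPM in dHep, 9.57, 10.7 and 11.8 in libraries labelled KO and 29.2, 26.6 and 40.2 in WT, so WT libraries were the highest, and dHep replicate 3 lay close to them. Gsta2 fell by 1.58 ± 0.28 on the log2 scale in the libraries labelled KO against WT (edgeR adjusted p = 0.00214) and by 0.98 ± 0.27 in dHep against WT (edgeR adjusted p = 0.0288). The dHep call ended with only the 2 groups in the fit (0.0681) and without WT replicate 1 (0.0564), WT replicate 2 (0.0524), WT replicate 3 (0.116), dHep replicate 1 (0.0708), dHep replicate 2 (0.0608) or both WT replicate 1 and dHep replicate 2 (0.0888), within a range of 0.00342 to 0.116. The 2 genes are shown with the 250 bases before their start sites, since they fell together in both groups. These are RefSeq promoters on GRCm38.p6, the assembly that mm10 names, at chr9:78230419-78230668 on the plus strand for Gsta1 and chr9:78347146-78347395 on the minus strand for Gsta2. Capitals mark the longest run that both share, of 29 bases, which begins 118 bases before the start in Gsta1 and 121 in Gsta2.
Gsta1: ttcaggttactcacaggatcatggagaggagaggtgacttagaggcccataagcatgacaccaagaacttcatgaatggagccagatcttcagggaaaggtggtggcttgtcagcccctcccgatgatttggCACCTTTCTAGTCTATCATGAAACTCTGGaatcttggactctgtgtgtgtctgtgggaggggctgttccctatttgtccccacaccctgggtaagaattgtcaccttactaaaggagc
Gsta2: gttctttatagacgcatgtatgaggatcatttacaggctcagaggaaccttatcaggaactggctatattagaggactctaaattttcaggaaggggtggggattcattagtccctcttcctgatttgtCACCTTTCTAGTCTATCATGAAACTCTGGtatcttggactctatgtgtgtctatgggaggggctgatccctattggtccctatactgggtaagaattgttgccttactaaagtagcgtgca
Aligned end to end, the windows were identical in 190 of 266 columns (71.4%).

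Gsta4, which conjugates the peroxidation product 4-hydroxynonenal, did not follow them in dHep. Its mean was 87.3 ± 29.1 CPM in dHep, 48.5 ± 2.81 in libraries labelled KO and 79.5 ± 5.36 in WT (SD, n = 3 each). Gsta4 fell by 0.71 ± 0.21 on the log2 scale in the libraries labelled KO against WT (edgeR adjusted p = 0.0216), a call lost without WT replicate 2 (0.0605), WT replicate 3 (0.0705), KO replicate 2 (0.0745) or KO replicate 3 (0.0672), within a range of 0.000241 to 0.0745. Gsta3 is the main alpha GST of mouse liver and is known there for disarming the aflatoxin epoxide. It had 1844, 2180.0 and 2975 CPM in dHep, 1576, 1454 and 1319 in libraries labelled KO and 1636, 1759 and 1713 in WT. Every dHep library lay above the others, but Gsta3 passed in neither comparison with WT (log2 fold change 0.45 ± 0.18 with adjusted p = 0.102 in dHep, and -0.23 ± 0.18 with 0.33 in the libraries labelled KO; edgeR). Its difference between the libraries labelled KO and dHep (-0.69 ± 0.18, edgeR adjusted p = 0.0472) ended under 12 of 16 alternatives, including the removal of any 1 WT or KO library or of dHep replicate 2 (0.0644 to 0.161), within a range of 0.00189 to 0.161. The same contrast of Gsta4 (-0.85 ± 0.21, edgeR adjusted p = 0.0363) ended under 10 of 16 alternatives, among them the removal of any 1 WT or KO library or of dHep replicate 2 (0.0585 to 0.121), within a range of 0.00169 to 0.121.

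Most genes of the mu-class cluster on chromosome 3 fell. All 7 mu genes passed in dHep against WT, where 24.3% of all genes did: Gstm1, Gstm2, Gstm3, Gstm4 and Gstm5 fell and Gstm6 and Gstm7 rose. In the libraries labelled KO against WT Gstm1 to Gstm4 fell and Gstm7 rose (71.4% called, against 43% of all genes). Without WT replicate 3 the falls there were those of Gstm2 and Gstm3. Gstm3 had 25.7, 17.8 and 27.8 CPM in dHep, 31.4, 33.0 and 27.5 in libraries labelled KO and 149, 181 and 282 in WT. The WT libraries stood far above all others, which overlapped each other. Gstm3 fell by 3.10 ± 0.25 on the log2 scale in dHep (8.58-fold lower, edgeR adjusted p = 0.000163) and by 2.73 ± 0.25 in the libraries labelled KO (6.66-fold lower, edgeR adjusted p = 0.000171), and both calls held under all alternatives run. Between the libraries labelled KO and dHep the difference was 0.37 ± 0.24 (edgeR adjusted p = 0.336).

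Gstm2 had 66.5, 32.2 and 89.1 CPM in dHep, 51.7, 53.4 and 54.9 in libraries labelled KO and 126, 156 and 189.9 in WT. It fell by 1.33 ± 0.30 in dHep (edgeR adjusted p = 0.0132) and by 1.56 ± 0.31 on the log2 scale in the libraries labelled KO (edgeR adjusted p = 0.00358), and the dHep call ended without WT replicate 3 (0.0595, range 0.000145 to 0.0595). Gstm4 had 42.7, 25.5 and 27.8 CPM in dHep, 48.0, 51.7 and 52.8 in libraries labelled KO and 74.6, 79.6 and 91.6 in WT, with no overlap between any groups. It fell by 1.35 ± 0.18 in dHep (edgeR adjusted p = 0.00152) and by 0.69 ± 0.18 in the libraries labelled KO (edgeR adjusted p = 0.0131). The second call ended without WT replicate 3 (0.0557, range 0.000508 to 0.0557). Gstm1 is the main mu enzyme of mouse liver and had 902, 937 and 1129.9 CPM in dHep, 1237, 1370.3 and 1270.1 in libraries labelled KO and 1559, 1616 and 2023 in WT. The groups lay in that order with no overlap, and Gstm1 fell by 0.81 ± 0.15 on the log2 scale in dHep (edgeR adjusted p = 0.00616). Its smaller fall in the libraries labelled KO, by 0.42 ± 0.15 (edgeR adjusted p = 0.0477), ended under 9 of 16 alternatives, including the removal of any 1 WT library (0.0551 to 0.182) or KO library (0.0854 to 0.141), within a range of 0.0134 to 0.182.

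The remaining mu genes changed by less. Gstm5 had 8.75, 7.50 and 7.31 CPM in dHep, 10.3, 11 and 12.8 in libraries labelled KO and 11.8, 13.1 and 12.4 in WT, and fell by 0.66 ± 0.13 on the log2 scale in dHep (edgeR adjusted p = 0.00672). Gstm4 and Gstm5 were higher in the libraries labelled KO than in dHep (0.67 ± 0.18 and 0.53 ± 0.13, edgeR adjusted p = 0.0484 and 0.0342), and neither call held without any 1 WT library (0.0622 to 0.0849), dHep replicate 2 (0.113 and 0.0767), KO replicate 2 (0.133 and 0.0917) or KO replicate 3 (0.14 and 0.132). For Gstm4 the removal of dHep replicate 3 (0.0716) or KO replicate 1 (0.0794) also ended it, and the ranges were 0.0029 to 0.151 and 0.0125 to 0.132. Gstm6 rose in dHep by 0.49 ± 0.10 (edgeR adjusted p = 0.00872). Gstm7 rose by 0.48 ± 0.12 in dHep (edgeR adjusted p = 0.0208, up to 0.0773 without 1 WT library) and by 0.37 ± 0.12 in the libraries labelled KO (edgeR adjusted p = 0.0331, up to 0.0968 without 1 WT or KO library). Those calls ended without any 1 WT library, the second also without any 1 KO library, within ranges of 0.00276 to 0.0924 and 0.00149 to 0.101. Parts of Gstm1 (23.1%) and Gstm3 (28.8%) lie in 50-base windows that other transcripts also hold, and Gstm4 shares none.

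The pi class went the other way. Gstp1 is the main GST of the pi class, with higher levels in livers of male than of female mice, and had 514, 334 and 566 CPM in dHep, 898, 1137 and 935 in libraries labelled KO and 309, 209 and 241 in WT. No groups overlapped, with the libraries labelled KO highest and WT lowest. Gstp1 rose 3.92-fold in the libraries labelled KO over WT (log2 fold change 1.97 ± 0.22 with an edgeR adjusted p = 0.00035), under all alternatives run. Its rise in dHep against WT was 0.90 ± 0.22 (edgeR adjusted p = 0.0163) and ended without WT replicate 2 (0.0761) or WT replicate 3 (0.0722), within a range of 0.000396 to 0.0761. The libraries labelled KO exceeded dHep by 1.07 ± 0.22 in log2 units (edgeR adjusted p = 0.0176), which ended without KO replicate 2 (0.0715) or KO replicate 3 (0.059), within a range of 5.14e-05 to 0.0715. Its copy Gstp2 was far less abundant, at 1.47, 0.722 and 2.30 CPM in dHep, 3.14, 3.57 and 3.52 in libraries labelled KO and 1.61, 0.852 and 0.998 in WT. Gstp2 rose by 1.56 ± 0.39 in the libraries labelled KO against WT (edgeR adjusted p = 0.0115), a call that ended without WT replicate 2 (0.0524) or WT replicate 3 (0.0504), within a range of 0.000815 to 0.0524. The pair shares 62.3% of the windows of Gstp1, so a part of its reads could not be placed.

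The promoters of the pi pair are shown because both genes rose there. They lie on the minus strand at chr19:4037913-4038162 for Gstp1 and chr19:4042222-4042471 for Gstp2 (RefSeq, GRCm38.p6), and capitals mark the letters TGANTCA of an AP-1 site, which begin 74 and 89 bases before the start.
Gstp1: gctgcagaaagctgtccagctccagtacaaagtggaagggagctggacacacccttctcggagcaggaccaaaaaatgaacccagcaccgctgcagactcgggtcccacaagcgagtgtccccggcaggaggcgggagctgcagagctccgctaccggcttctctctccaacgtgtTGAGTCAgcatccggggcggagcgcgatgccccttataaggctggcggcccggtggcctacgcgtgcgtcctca
Gstp2: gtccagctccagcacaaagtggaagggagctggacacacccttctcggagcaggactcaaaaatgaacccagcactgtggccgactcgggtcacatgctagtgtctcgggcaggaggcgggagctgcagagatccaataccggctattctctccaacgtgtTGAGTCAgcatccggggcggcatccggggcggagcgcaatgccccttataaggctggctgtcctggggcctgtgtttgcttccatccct
The windows were identical in 208 of 265 aligned columns (78.5%). On either strand TGANTCA occurred in 11 of 61 promoter windows of conjugation genes (18.0%), against 6.75% of all 32841 RefSeq promoter windows of that length. Among these were Gstp1, Gstp2, Ugt2b1, Ugt2b35, Ugt2b37 and Ugt2b38, and windows of neighbouring copies are not independent. The spelling TGACNNNGC of the core of the antioxidant response element, which NRF2 binds, occurred in 3 of the 61 windows (4.92%). Those were of Gsta3, Gstm5 and Gstm7, against 10.2% of all windows. Other spellings of that core were not searched, so the letters TGAGTCAGC of the pi pair were not counted. The HNF4A site CAAAGTCCA occurred in none of the 61, against 0.384% of all windows. RefSeq windows were matched to 51 of the 59 genes, and a match or its lack says only which letters these 250 bases hold.

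**Figure D2:**
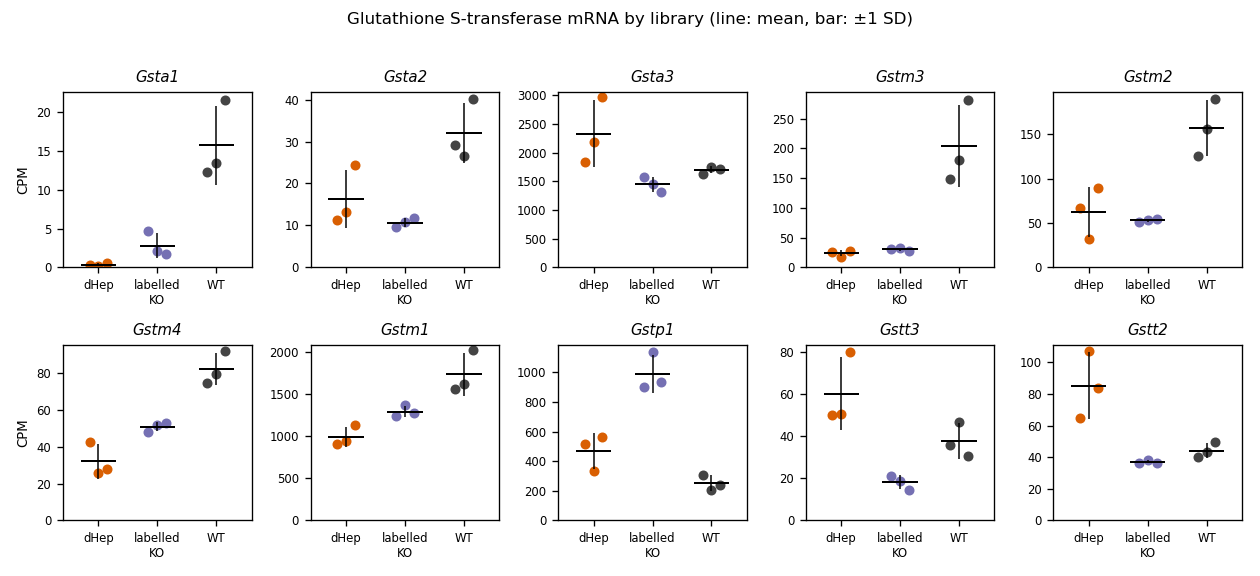
CPM of 10 GST genes in each library (points) of dHep, labelled KO and WT livers, with the mean (line) and ±1 SD (bar); each axis starts at 0. Gsta1, Gstm3, Gstm2 and Gstm4 are highest in WT, Gstp1 is highest in the libraries labelled KO, and Gstt3 and Gstt2 are highest in dHep.

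Theta GSTs act on small halogenated and reactive molecules, and all 3 tested fell in the libraries labelled KO against dHep, where 5.39% of all genes fell. Gstt3 had 50, 50.7 and 80.1 CPM in dHep, 21.3, 18.9 and 14.7 in libraries labelled KO and 36.0, 46.9 and 30.4 in WT. The libraries labelled KO lay lowest, without overlap. Gstt3 fell there by 1.72 ± 0.24 on the log2 scale against dHep (edgeR adjusted p = 0.00393) and by 1.04 ± 0.23 against WT (edgeR adjusted p = 0.00636). Gstt2 had 36.6, 38.4 and 36.6 CPM in the libraries labelled KO and 64.6, 107 and 84.0 in dHep, where WT had 39.8, 43.4 and 49.3. It fell by 1.2 ± 0.17 in the libraries labelled KO against dHep (edgeR adjusted p = 0.00425) and rose by 0.95 ± 0.17 in dHep against WT (edgeR adjusted p = 0.00478). Gstt1 had 161, 172 and 158 CPM in the libraries labelled KO and 209.6, 296 and 344 in dHep, where WT had 209, 226 and 210.4. Gstt1 fell by 0.79 ± 0.16 in the libraries labelled KO against dHep (edgeR adjusted p = 0.0176), a call that ended with only the 2 groups in the fit (0.0665) and without KO replicate 2 (0.0598), KO replicate 3 (0.0769) or both WT replicate 1 and dHep replicate 2 (0.0724), within a range of 0.000206 to 0.0769. Gstt3 also shares 26.0% of its windows with another transcript.

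The other GST genes moved little. Gstz1, which isomerises maleylacetoacetate in tyrosine breakdown, had 1202, 1092 and 1498 CPM in dHep, 1049, 999 and 1106 in libraries labelled KO and 959.7, 949 and 934 in WT, and passed in no comparison (edgeR adjusted p = 0.057 in dHep against WT). Gstk1, the kappa enzyme of mitochondria and peroxisomes, passed in none either (edgeR adjusted p = 0.24, 0.418 and 0.704). Gsto1, which reduces dehydroascorbate, rose by 0.49 ± 0.13 on the log2 scale in dHep against WT (edgeR adjusted p = 0.0243). That call ended with only the 2 groups in the fit (0.0593) and without WT replicate 1 (0.0811), WT replicate 2 (0.063), WT replicate 3 (0.0995) or both WT replicate 1 and dHep replicate 2 (0.079), within a range of 0.00653 to 0.0995.

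The Ugt1a locus on chromosome 1 (positions 88055411 to 88220002 of mm10) makes its enzymes from alternative first exons joined to shared last exons. Because a read over shared exons was assigned to no gene, each Ugt1a gene was counted on the 890 to 986 bases of its own first exon, which holds 27.8% to 42.8% of its annotated length. Ugt1a1 is the bilirubin-conjugating enzyme. It had 182, 384 and 149.5 CPM in dHep, 95.1, 63.4 and 81.3 in libraries labelled KO and 272, 295 and 259 in WT. The libraries labelled KO lay below all others, and dHep libraries lay on both sides of WT. Ugt1a1 fell there by 1.78 ± 0.32 on the log2 scale against WT, 3.44-fold lower (edgeR adjusted p = 0.00228), and by 1.58 ± 0.32 against dHep (edgeR adjusted p = 0.017). The call against dHep ended with only the 2 groups in the fit (0.0581) and without KO replicate 2 (0.0737) or KO replicate 3 (0.0701), within a range of 5.33e-06 to 0.0737. Ugt1a5 had 8.84, 16.8 and 2.26 CPM in dHep, 1.88, 1.72 and 1.15 in libraries labelled KO and 17.8, 26.7 and 25.8 in WT. The libraries labelled KO were lowest and WT highest, and the dHep libraries spread between them. Ugt1a5 fell by 3.87 ± 0.61 in the libraries labelled KO against WT, 14.6-fold lower (edgeR adjusted p = 0.00126), and held under all alternatives run. Against dHep it fell by 2.55 ± 0.59 (edgeR adjusted p = 0.029), by 1.83 without dHep replicate 2 (0.0644). That call also ended with only the 2 groups in the fit (0.0779) and without WT replicate 2 (0.0531), WT replicate 3 (0.0533), KO replicate 1 (0.0647), KO replicate 2 (0.0981), KO replicate 3 (0.111) or both WT replicate 1 and dHep replicate 2 (0.0843), within a range of 0.00181 to 0.111.

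Ugt1a6a and Ugt1a6b conjugate simple phenols and fell to similar levels in both groups. Ugt1a6a averaged 36.4 ± 10.9 CPM in dHep, 37.3 ± 6.39 in libraries labelled KO and 68.7 ± 2.04 in WT (SD, n = 3 each), with every WT library above the rest. It fell by 0.91 ± 0.20 on the log2 scale in dHep (edgeR adjusted p = 0.0109) and by 0.88 ± 0.20 in the libraries labelled KO (edgeR adjusted p = 0.00687), under all alternatives run. Ugt1a6b averaged 38.9 ± 18.5 CPM in dHep, 38.5 ± 4.60 in libraries labelled KO and 72.4 ± 2.56 in WT, and fell by 0.90 ± 0.27 and 0.91 ± 0.28 (edgeR adjusted p = 0.0414 and 0.0242). Both calls ended without any 1 library of WT (up to 0.115 in dHep and 0.0675 in libraries labelled KO) or of KO (up to 0.0642 and 0.0905). The dHep call also ended without dHep replicate 1 (0.105) or dHep replicate 3 (0.0657), with the replicate block (0.0525) and with 2 groups in the fit (0.0795), and the ranges were 0.00176 to 0.115 and 0.0002 to 0.0905. In the mouse GENCODE M21 transcripts used for this check, every window of Ugt1a6a also occurs in a transcript of Ugt1a7c, a gene of the same locus. In the annotation used for counting, 986 bases of Ugt1a6a lie in no other gene's exon.

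Ugt1a9, another enzyme for phenols, varied widely between dHep libraries. It had 8.36, 20.5 and 289 CPM in dHep, 181, 135 and 167 in libraries labelled KO and 48.8, 75.7 and 70.0 in WT. The third dHep library thus stood above all others while the remaining dHep libraries were the lowest of the 9. Ugt1a9 passed in no comparison (edgeR adjusted p = 0.63 in dHep and 0.30 in libraries labelled KO against WT). Without dHep replicate 3 its log2 fold change in dHep against WT was -2.18, against 0.70 with all 9 libraries (edgeR adjusted p = 0.00665, range 0.00665 to 0.823). Without that library the log2 fold change of the libraries labelled KO was 1.31 against WT (edgeR adjusted p = 0.00754, range 0.000542 to 0.473, called also with only those groups fitted) and 3.49 against dHep (edgeR adjusted p = 0.002, range 0.002 to 0.971). Sult1e1, the oestrogen sulfotransferase, also had its highest dHep value in dHep replicate 3, at 0.0899, 0.160 and 4.07 CPM in dHep, 2.35, 1.67 and 2.88 in libraries labelled KO and 0.526, 0.333 and 0.143 in WT. It passed in no comparison with all libraries (edgeR adjusted p = 0.0813 in the libraries labelled KO against WT), and without dHep replicate 3 the libraries labelled KO were 2.77 above WT (0.00169, range 0.000983 to 0.211) and 4.18 above dHep on the log2 scale (0.00574, range 0.00574 to 0.94). The difference from WT also passed without dHep replicate 1, without dHep replicate 2 and with only those groups fitted. Both genes were singled out after their values were seen.

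Ugt1a10, mainly a gut enzyme, stayed low everywhere, at 0.180, 0.441 and 1.37 CPM in dHep, 2.20, 1.63 and 2.31 in libraries labelled KO and 0.488, 0.333 and 0.392 in WT. It rose by 2.32 ± 0.59 on the log2 scale in the libraries labelled KO against WT (edgeR adjusted p = 0.0121), a call that ended without WT replicate 2 (0.0522, range 0.000317 to 0.0522). Ugt1a7c had 60 reads in KO replicate 1, 30 in WT replicate 1 and 24 in dHep replicate 2, and 1 to 18 in the other libraries. KO replicate 1, which had the highest intestinal marker sum, also held 14.96 CPM of Ggt1 and 39.2 CPM of the intestinal marker Vil1. No other library passed 0.281 and 1.27 CPM of these, and WT replicate 1 and dHep replicate 2 had the highest pancreatic marker sums. The part of this RNA in Ugt1a7c was not tested.

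**Figure D3:**
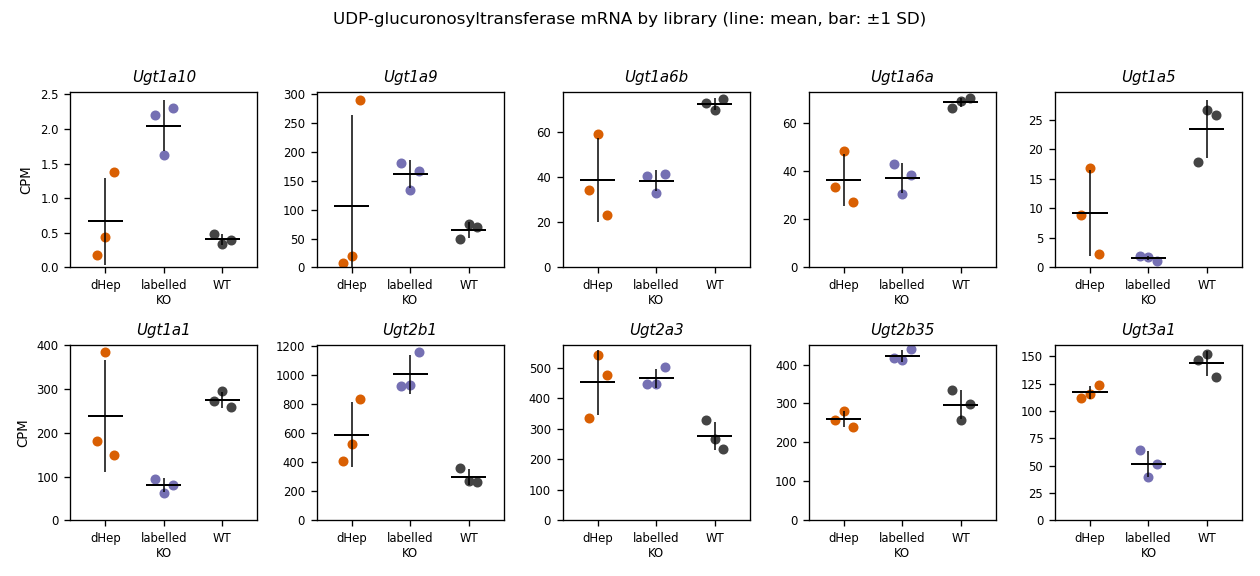
CPM of 10 UGT genes in each library (points) of dHep, labelled KO and WT livers, with the mean (line) and ±1 SD (bar); each axis starts at 0. Ugt1a1, Ugt1a5 and Ugt3a1 are lowest and Ugt2b1 is highest in the libraries labelled KO, and 1 dHep library of Ugt1a9 reaches 289 CPM.

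The Ugt2 cluster on chromosome 5 conjugates steroids, bile acids and fatty acids. Of its 8 genes tested, 2 rose and none fell in dHep against WT, and 4 rose and none fell in the libraries labelled KO against WT. These shares, 25% and 50% called, lay near the 24.3% and 43% of all genes. The rises in dHep numbered none without WT replicate 2 or WT replicate 3 and 1 without dHep replicate 3. Ugt2b1, whose mRNA is higher in male than in female mouse liver, had 405, 528 and 835 CPM in dHep, 926, 927 and 1159 in libraries labelled KO and 359.9, 271 and 262 in WT. WT libraries were lowest and the libraries labelled KO highest, without overlap. Ugt2b1 rose 3.37-fold in the libraries labelled KO over WT (log2 fold change 1.75 ± 0.26 with an edgeR adjusted p = 0.000945) under all alternatives run. The rise in dHep was 0.99 ± 0.25 (edgeR adjusted p = 0.021) and ended without WT replicate 2 (0.0867) or WT replicate 3 (0.0907), within a range of 0.000647 to 0.0907. Ugt2a3, whose human form conjugates bile acids, averaged 452 ± 106 CPM in dHep, 466 ± 31.9 in libraries labelled KO and 277 ± 47.3 in WT. It rose by 0.75 ± 0.19 on the log2 scale in the libraries labelled KO (edgeR adjusted p = 0.0104) and by 0.71 ± 0.19 in dHep (edgeR adjusted p = 0.0232), and the dHep call ended without WT replicate 2 (0.0886), WT replicate 3 (0.101) or dHep replicate 3 (0.0542), within a range of 0.00157 to 0.101.

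Ugt2b35 had 418, 411 and 440.0 CPM in the libraries labelled KO and 258, 280.2 and 241 in dHep, where WT had 333, 259 and 298. The libraries labelled KO were highest, and Ugt2b35 rose there by 0.70 ± 0.12 on the log2 scale against dHep (edgeR adjusted p = 0.00902) and by 0.51 ± 0.12 against WT (edgeR adjusted p = 0.00732). Ugt2b36, the UGT gene with the highest level per length, had 750.0, 843 and 1123 CPM in dHep, 1229, 1189.5 and 1354 in libraries labelled KO and 973, 849.9 and 865 in WT. It rose by 0.49 ± 0.16 in the libraries labelled KO against WT (edgeR adjusted p = 0.0358), but not without any 1 WT or KO library (0.0566 to 0.118), within a range of 0.0023 to 0.118. The abundant Ugt2b5 and Ugt2b34 passed in no comparison. Ugt2b5 had 491, 717 and 855 CPM in dHep, 886, 911 and 1022 in libraries labelled KO and 836, 653 and 724 in WT, and Ugt2b34 had 471, 865 and 753 CPM in dHep, 544, 564 and 591 in libraries labelled KO and 790.0, 705 and 709 in WT. Their dHep libraries covered the range of WT. Ugt2b5 shares 41.7% of its windows with other transcripts of the cluster.

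Of the Ugt3 pair on chromosome 15, Ugt3a1 was called and Ugt3a2 was not, and the difference between them was not tested. Ugt3a1, whose human form transfers N-acetylglucosamine in place of glucuronic acid, had 112, 115 and 124 CPM in dHep, 64.0, 39.8 and 51.2 in libraries labelled KO and 147, 152 and 131 in WT. No groups overlapped, and Ugt3a1 fell in the libraries labelled KO by 1.47 ± 0.16 on the log2 scale against WT (edgeR adjusted p = 0.000274) and by 1.18 ± 0.16 against dHep (edgeR adjusted p = 0.00322). The neighbouring Ugt3a2 had 354, 513 and 579 CPM in dHep, 552, 485 and 567 in libraries labelled KO and 556, 508 and 482 in WT, and passed in no comparison (edgeR adjusted p = 0.716, 0.823 and 0.603).

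Of the 7 SULT genes tested, dHep had 3 rises and no fall, and libraries labelled KO 2 rises and 1 fall, against WT (42.9% called in each, against 24.3% and 43% of all genes). Sult1a1, the main phenol sulfotransferase, had 299, 503 and 451 CPM in dHep, 156, 141 and 157 in libraries labelled KO and 181, 223 and 226 in WT. Every dHep library was highest and every library labelled KO lowest. Sult1a1 rose 1.99-fold in dHep over WT (log2 fold change 0.99 ± 0.18 with an edgeR adjusted p = 0.00562) and fell by 1.46 ± 0.18 in the libraries labelled KO against dHep (edgeR adjusted p = 0.0027), while the libraries labelled KO differed from WT by -0.47 ± 0.18 (edgeR adjusted p = 0.0606). Sult1d1, which sulfates catecholamines and their metabolites, had 179.7, 204 and 277 CPM in dHep, 119, 103 and 143 in libraries labelled KO and 123, 119 and 105 in WT. It was higher in every dHep library, and rose by 0.93 ± 0.17 on the log2 scale in dHep against WT (edgeR adjusted p = 0.00605). It fell by 0.86 ± 0.17 in the libraries labelled KO against dHep (edgeR adjusted p = 0.0177), which ended with only the 2 groups in the fit (0.0616), without KO replicate 2 (0.0738) and without both WT replicate 1 and dHep replicate 2 (0.0543), within a range of 0.000205 to 0.0738.

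Sult1b1, the thyroid hormone sulfotransferase, had 61.3, 51.9 and 76.5 CPM in dHep, 62.5, 44.5 and 55.6 in libraries labelled KO and 33.4, 30.4 and 28.4 in WT. The dHep and KO libraries overlapped each other above WT, and Sult1b1 rose by 1.04 ± 0.17 in dHep (edgeR adjusted p = 0.00312) and by 0.82 ± 0.17 on the log2 scale in the libraries labelled KO (edgeR adjusted p = 0.00413), under all alternatives run. Sult1c2 had 11.7, 15.8 and 18.3 CPM in dHep, 11.3, 10.4 and 11.1 in libraries labelled KO and 17.9, 18.96 and 18.3 in WT, and fell by 0.75 ± 0.15 in the libraries labelled KO against WT (edgeR adjusted p = 0.00423). Sult5a1, whose substrates are little known, had 8.48, 6.10 and 10.7 CPM in dHep, 13.9, 22.8 and 26.0 in libraries labelled KO and 9.95, 3.56 and 4.17 in WT. The libraries labelled KO were highest, with WT replicate 1 within the range of dHep. Sult5a1 rose by 1.83 ± 0.40 in the libraries labelled KO against WT (edgeR adjusted p = 0.00579), and by 2.43 without WT replicate 1 (0.00173, range 1.39e-05 to 0.0295). Sult2a7, a gene of the hydroxysteroid and bile acid sulfotransferases, averaged 2.00 ± 1.12 CPM in dHep, 3.35 ± 1.02 in libraries labelled KO and 1.73 ± 0.686 in WT and passed in no comparison.

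**Figure D4:**
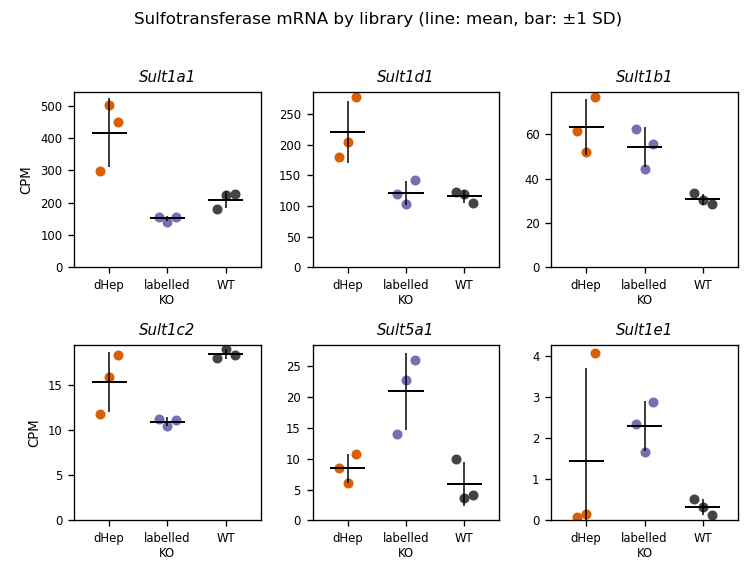
CPM of 6 SULT genes in each library (points) of dHep, labelled KO and WT livers, with the mean (line) and ±1 SD (bar); each axis starts at 0. Sult1a1 and Sult1d1 are highest in all 3 dHep libraries, Sult1b1 is higher in dHep and labelled KO than in WT libraries, and 1 dHep library of Sult1e1 reaches 4.07 CPM.

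The 16 genes below the filter included 6 of the 7 Sult2a genes and had at most 39 reads in a library. Gstt4, Sult1c1, Sult2a4, Sult2a6, Ugt2a1 and Ugt2a2 had no read in any library. The highest count of 39 was of Sult2b1, a cholesterol sulfotransferase of epithelia, in KO replicate 1, out of 49 reads in all 9 libraries. Female-predominant genes of mouse liver are Sult1a1, Sult2a1, Sult2a2, Sult3a1, Ugt1a1 and Ugt1a5, of which 3 were tested, and Sult2a1, Sult2a2 and Sult3a1 had 1, 9 and 7 reads in all. Of the 3 tested, 1 rose in dHep against WT and 2 fell in the libraries labelled KO against WT, where 12.4% of all genes rose and 22.1% fell. None fell in dHep, but Ugt1a1 and Ugt1a5 did without dHep replicate 2. Of the 4 male-predominant genes Gstp1, Gstp2, Ugt2b1 and Ugt2b38, 2 rose in dHep and 3 in libraries labelled KO against WT, where 12.4% and 20.9% of all genes did, and none fell. Without WT replicate 2 or WT replicate 3 the male-predominant rises numbered none in dHep and 2 in libraries labelled KO.

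Genes that NRF2, a transcription factor of the response to oxidative and electrophile stress, is known to induce in mouse liver made up 12 of the genes tested. In dHep against WT 8 of these 12 fell and 2 rose (median log2 fold change -0.91, against 0.02 over all genes), where 11.9% and 12.4% of all genes did. In the libraries labelled KO against WT 9 fell and 2 rose (median -0.80, against -0.01), where 22.1% and 20.9% of all genes did. Without WT replicate 3 the falls numbered 5 in each, and without WT replicate 2 or WT replicate 3 the dHep rises numbered 1. Those that fell in both were Gsta1, Gsta2, Gstm1, Gstm2, Gstm3, Gstm4, Ugt1a6a and Ugt1a6b, and Gstp1 rose in both. Nfe2l2, which encodes NRF2, had 67.0, 59.5 and 73.3 CPM in dHep, 107, 73.1 and 69.9 in libraries labelled KO and 98.1, 119.97 and 121 in WT. It fell by 0.76 ± 0.17 on the log2 scale in dHep against WT (edgeR adjusted p = 0.0121), which ended without WT replicate 2 (0.0528) or WT replicate 3 (0.0556), within a range of 0.000514 to 0.0556, and was -0.44 ± 0.17 in the libraries labelled KO (edgeR adjusted p = 0.0615). Of the 20 regulators of conjugation genes tested, 3 rose and 2 fell in dHep and 4 rose and 3 fell in the libraries labelled KO against WT, which at 25% and 35% called is near or below the 24.3% and 43% of all genes. The dHep rises numbered 1 without any 1 WT library, KO replicate 2 or KO replicate 3, and the dHep falls none without WT replicate 2 or WT replicate 3. The rises in the libraries labelled KO numbered 2 without WT replicate 1 or KO replicate 1, 1 without WT replicate 2, WT replicate 3, KO replicate 2 or KO replicate 3, and 6 without dHep replicate 2 or dHep replicate 3, and the falls 5 without KO replicate 1. Hnf4a, which the series title names, averaged 605 ± 83.5 CPM in dHep, 608 ± 55.2 in libraries labelled KO and 487 ± 10.3 in WT and passed in no comparison (edgeR adjusted p = 0.105 and 0.0692 against WT). Maff, a small partner of NRF2, fell by 2.18 ± 0.25 and Ppara, the fatty acid receptor, by 0.96 ± 0.20 in the libraries labelled KO against WT (edgeR adjusted p = 0.000379 and 0.00478). In dHep against WT Maff also fell, a call that ended without WT replicate 2 or WT replicate 3, and Ppara was not called.

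Genes of cofactor supply and turnover were counted for each class. For UGTs, 5 of 10 genes of UDP-glucuronic acid supply and glucuronide turnover fell and none rose in dHep against WT, where 11.9% of all genes fell. The 5 were Ugdh, Entpd5, Pgm1, Gusb and Ugp2. Gusb, which also fell in the libraries labelled KO, encodes a glucuronidase and not a supply enzyme. Without WT replicate 2 or WT replicate 3 the dHep falls numbered 3. The dHep rises numbered 1 without dHep replicate 1 or dHep replicate 2. In libraries labelled KO 4 fell and 1, Slc35b1, rose against WT, where 22.1% and 20.9% of all genes did, with 3 to 5 falls where 1 library was left out. Slc35b1 encodes a nucleotide carrier of the endoplasmic reticulum. Ugdh, which oxidises UDP-glucose to UDP-glucuronic acid, had 100.2, 125 and 148 CPM in dHep, 226, 218 and 234 in libraries labelled KO and 345, 332 and 402 in WT, with no overlap. It fell by 1.53 ± 0.15 on the log2 scale in dHep (edgeR adjusted p = 0.00034) and by 0.67 ± 0.14 in the libraries labelled KO against WT (edgeR adjusted p = 0.00537), and was 0.86 ± 0.14 higher in the libraries labelled KO than in dHep (edgeR adjusted p = 0.00902). Entpd5, which clears the UDP that glucuronidation leaves, fell by 1.27 ± 0.15 in dHep and by 0.99 ± 0.15 in the libraries labelled KO (edgeR adjusted p = 0.000887 and 0.00108). Ugp2, which makes UDP-glucose, fell by 0.62 ± 0.13 in the libraries labelled KO (edgeR adjusted p = 0.00448) and was also called in dHep against WT.

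For GSTs, 4 of 15 genes of glutathione synthesis, breakdown and recycling fell and 2 rose in dHep (40% called, against 24.3% of all genes). The 2 were Ggt6 and Chac2, and Chac2 is a gene of glutathione breakdown, not of its supply. In libraries labelled KO 3 fell and 1, Chac2, rose against WT, which at 26.7% called is below the 43% of all genes. The dHep falls numbered 2 without WT replicate 2, and the dHep rises 1 without WT replicate 2 or WT replicate 3. The single rise in libraries labelled KO was lost without WT replicate 3, and the rises there numbered 3 without dHep replicate 1 and 2 where dHep replicate 2, dHep replicate 3 or WT replicate 1 was left out. Gclc, the catalytic subunit of the rate-limiting enzyme of glutathione synthesis, had 324, 206 and 297 CPM in dHep, 505, 387 and 428 in libraries labelled KO and 580.3, 494 and 689.6 in WT. It fell by 1.09 ± 0.19 on the log2 scale in dHep (edgeR adjusted p = 0.00494) and was -0.42 ± 0.19 in the libraries labelled KO (edgeR adjusted p = 0.106). Gss, which adds the last amino acid, fell by 0.65 ± 0.11 in dHep (edgeR adjusted p = 0.00384), and G6pdx, a source of NADPH for glutathione reduction, by 1.24 ± 0.25 in the libraries labelled KO (edgeR adjusted p = 0.00426).

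For SULTs, the list of PAPS supply, other PAPS users and sulfatases gave 4 rises and 3 falls of 12 genes in dHep (58.3% called, against 24.3% of all genes) and 4 of each in the libraries labelled KO against WT (66.7%, against 43%). Tpst1 and Tpst2, which use PAPS to sulfate proteins, were among the rises in both. Without any 1 WT library the dHep rises numbered 2, and without dHep replicate 2 the falls numbered 5. Papss2, the PAPS synthase of liver, had 254, 498 and 467 CPM in dHep, 170.5, 98.0 and 115 in libraries labelled KO and 143, 193 and 146 in WT. Every dHep library was above the rest, as for Sult1a1 and Sult1d1. Papss2 rose by 1.34 ± 0.28 on the log2 scale in dHep against WT (edgeR adjusted p = 0.00926), and the call ended without both WT replicate 1 and dHep replicate 2 (0.0566, range 1.22e-05 to 0.0566). It fell by 1.67 ± 0.28 in the libraries labelled KO against dHep (edgeR adjusted p = 0.00944). The lysosomal sulfatases Arsa and Arsb fell in dHep (by 0.85 ± 0.10 and 0.72 ± 0.12, edgeR adjusted p = 0.000887 and 0.0036) and also in libraries labelled KO (by 0.65 ± 0.10 and 1.53 ± 0.12, edgeR adjusted p = 0.00121 and 0.000101).

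Among 11 exporters of conjugates, 5 fell and 1 rose in dHep and 6 fell and 2 rose in libraries labelled KO against WT. These are 54.5% and 72.7% called, against 24.3% and 43% of all genes. The dHep falls numbered none without WT replicate 2 or WT replicate 3, 3 without WT replicate 1 or KO replicate 2, 2 without KO replicate 3 and 1 without dHep replicate 3, and in the libraries labelled KO the falls numbered 3 without KO replicate 3 and the rises 1 without WT replicate 2, WT replicate 3 or KO replicate 2. Abcc4, an exporter toward the blood, had 2.13, 4.25 and 2.11 CPM in dHep, 0.657, 1.76 and 1.10 in libraries labelled KO and 5.18, 8.67 and 9.76 in WT. WT libraries were the highest, and Abcc4 fell by 2.74 ± 0.42 on the log2 scale in the libraries labelled KO (edgeR adjusted p = 0.00122). Abcb1a, a multidrug pump, fell by 3.16 ± 0.47 in the libraries labelled KO (edgeR adjusted p = 0.00102), and Abcc6 rose by 0.79 ± 0.14 in dHep and 0.82 ± 0.14 in libraries labelled KO (edgeR adjusted p = 0.0045 and 0.00179). Abcc2, the main pump for conjugates into bile, had 533, 564 and 428 CPM in dHep, 578, 371 and 409 in libraries labelled KO and 776, 757 and 754 in WT. It fell by 0.75 ± 0.18 in the libraries labelled KO (edgeR adjusted p = 0.0082), and its values were singled out after they were seen. Abcc4, Abcb1a and Abcc2 also fell in dHep against WT, calls that ended without WT replicate 2 or WT replicate 3.

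Of 17 other conjugation enzymes, 7 rose and none fell in dHep, and 7 rose and 3 fell in the libraries labelled KO against WT. Of all genes 12.4% rose and 11.9% fell in dHep, and 20.9% rose and 22.1% fell in the libraries labelled KO. Without dHep replicate 2 the dHep falls numbered 1. Gnmt, which methylates glycine, rose by 1.70 ± 0.14 in dHep and 1.27 ± 0.14 on the log2 scale in the libraries labelled KO (edgeR adjusted p = 0.00019 and 0.000329), and the nicotinamide methyltransferase Nnmt by 1.32 ± 0.18 in dHep (edgeR adjusted p = 0.00185). Nnmt also rose in the libraries labelled KO against WT. Hnmt, which methylates histamine, and As3mt, which methylates arsenic, fell in the libraries labelled KO (by 1.27 ± 0.20 and 1.39 ± 0.22, edgeR adjusted p = 0.00119 and 0.00135). Of 10 microsomal and other glutathione transferases, 2 fell and 1 rose in dHep and 3 fell and 2 rose in the libraries labelled KO, shares of 30% and 50% called that lay near the 24.3% and 43% of all genes. The dHep falls numbered 1 without WT replicate 2, WT replicate 3 or dHep replicate 1 and 4 without dHep replicate 2, and the dHep rises 2 without dHep replicate 1. Mgst3, a microsomal glutathione transferase and peroxidase, fell by 1.85 ± 0.26 in the libraries labelled KO (edgeR adjusted p = 0.000868) and was also called fallen in dHep against WT. Hpgds, a prostaglandin D synthase of the sigma GST class known from mast cells and macrophages, fell by 1.51 ± 0.28 in dHep and 2.33 ± 0.30 in libraries labelled KO (edgeR adjusted p = 0.00551 and 0.00054). The macrophage marker sums given above were below WT in every library labelled KO and overlapped WT in dHep. By single marker, 6 of the 9 fell and none rose in dHep against WT, where 11.9% of all genes fell. In the libraries labelled KO 8 of the 9 fell and none rose, where 22.1% of all genes fell. The part of macrophage RNA in the values of Hpgds was not tested.

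**Figure D5:**
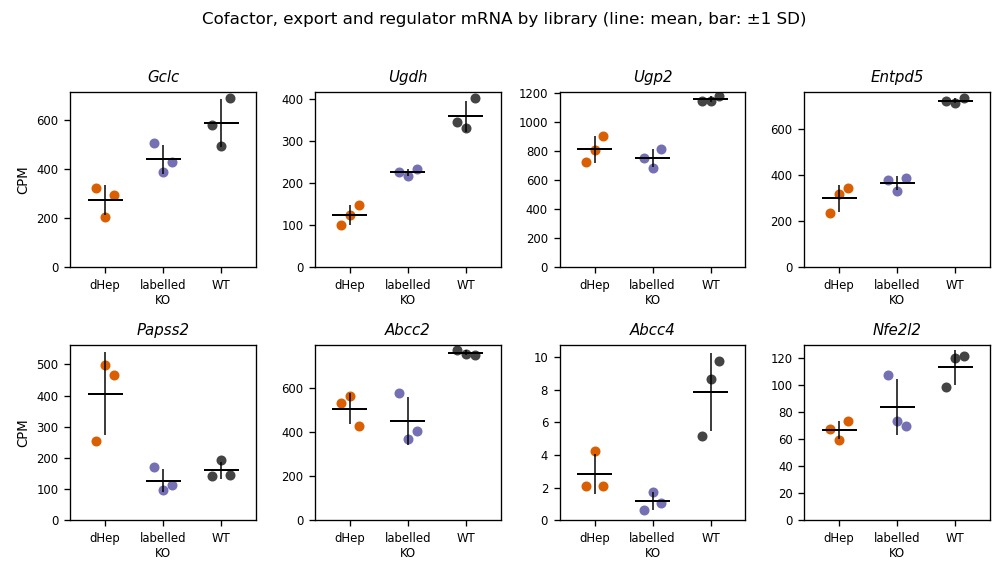
CPM of 8 genes of cofactor supply, export and control in each library (points) of dHep, labelled KO and WT livers, with the mean (line) and ±1 SD (bar); each axis starts at 0. Gclc, Ugdh, Entpd5, Abcc2 and Abcc4 are highest in WT, and Papss2 is highest in dHep.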

How the data were processed

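Whole-liver poly(A) RNA libraries of 9 mice were analysed, 3 per group, numbered as in the labels. The deposited table holds raw read counts per gene, which the authors made with featureCounts 1.6.2 on the mm10 gene annotation, counting the reverse strand only and leaving out reads with several placements or over several genes, per the file headers. The alignment used HISAT2 2.1.0, per the submitters' processing notes. The exon coordinates and lengths that the deposited table gives were used only for levels per length and to find exon bases that genes share.

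From the counts, edgeR 4.0.16 (R 4.3.3) fitted all 9 libraries with 1 mean per group after TMM scaling and filterByExpr (minimum count 10, minimum total 15), which kept 13141 of 23337 genes. Quasi-likelihood p-values were adjusted over those genes by Benjamini and Hochberg, with a threshold of 0.05. An exact permutation test of 3 against 3 cannot go below 0.1 and was not used. Alternatives were DESeq2 1.42.0, its size factors in edgeR, no filter, 1 CPM in 3 libraries, only the 2 groups compared, the replicate number as a block, each library left out, and, added after seeing the data, WT replicate 1 together with dHep replicate 2 left out. Where a group kept 2 libraries, the fit pools their spread with the other groups. The labels do not say whether libraries of a group differ in cage or day, and no batch is given. Window sharing was computed from mouse GENCODE M21 transcripts.

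The conjugation genes and gene lists were chosen with earlier results of these data known. Values in every library are given for the 5 members of each class with the highest mean CPM, for up to 5 called members per direction and comparison with the largest change and a group mean of at least 1 CPM, and for F2rl1. From each other list up to 2 called genes per direction and comparison with the smallest p could be named. Exceptions were chosen after their values were seen.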

Additional observations from a re-analysis of the deposited data

How the results depend on the processing

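Of the calls among the 43 genes, 11 of 19 in dHep against WT, 16 of 24 in the libraries labelled KO against WT and 6 of 15 in the libraries labelled KO against dHep held under all 16 alternatives, and none of them reversed. With 1 library left out, the genes that rose numbered 5 to 15 in dHep against WT, 6 to 13 in the libraries labelled KO against WT and 2 to 14 in the libraries labelled KO against dHep. The genes that fell numbered 6 to 10, 10 to 17 and 4 to 12 in the same comparisons. In the libraries labelled KO against dHep the rises also numbered 3 with no filter on low counts, 3 with only the compared groups fitted, 3 without both WT replicate 1 and dHep replicate 2, and 11 with DESeq2. The falls there numbered 4 with only the compared groups fitted and 5 without both WT replicate 1 and dHep replicate 2. Ugt1a9 in dHep against WT had a log2 fold change of -2.18 without dHep replicate 3 and 1.25 without dHep replicate 1, against 0.70 with all libraries. The cause was not tested in any of these.

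With the replicate number as a block, the rises in the libraries labelled KO against dHep numbered 3. Whether replicate numbers pair the libraries was not settled. Deviations from the group means correlated at -0.0903, -0.272 and -0.0942 for the same numbers of dHep and WT, at 0.0178, 0.0101 and 0.0273 for KO and WT, and at -0.00585, -0.0332 and -0.112 for KO and dHep. Unlike numbers of dHep and WT ranged from -0.14 to 0.273, so the check cannot tell pairing from its lack with 3 libraries a group.

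Low counts limited the 16 genes that were not tested, and reads that several near-identical genes share limited Gsta1, Gsta2, Gstp1, Gstp2 and Ugt2b5. The Ugt1a genes were counted without the last exons that they share.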
